A study of Mus musculus with 24 samples.

Results

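Retinal RNA of CAST/EiJ and PWK/PhJ mice was compared with that of WSB/EiJ mice to find the genes that differed from WSB/EiJ in the same direction in both strains. The comparison used 9 of the 24 libraries of the series, 3 from each of these strains. Of 28802 genes in the table, those with a mean of at least 0.5 CPM over the 9 libraries and not on chromosome X or Y were tested, 15742 in all. Of these, 3265 (20.7%) differed from WSB/EiJ in the same direction in both strains. Just inside the limit on the mean lay Gm5790 at 0.5001 CPM, and just outside it Gm47132 at 0.4999 CPM.

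The study asked how retinal gene expression differs among inbred mouse strains that differ in contrast vision and in refraction. Total RNA of retinae was depleted of ribosomal RNA and sequenced with a kit that keeps strand. Each of the 8 strains, all labelled wild type, was sampled at postnatal day 28 with 3 libraries per strain, and the mice of the groups compared here were untreated as far as the labels tell. The groups are CAST/EiJ, PWK/PhJ and WSB/EiJ, and the other strains are 129S1/Svlmj, A/J, C57BL/6J, NOD/ShiLtJ and NZO/HlLtJ, called classical strains below. The q-values judge differences between strains against the spread between the 3 libraries of a strain.

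House mice fall into subspecies that separated long before laboratory breeding, and inbred lines founded from wild mice keep much of that separation. CAST/EiJ derives from Mus musculus castaneus, PWK/PhJ from Mus musculus musculus and WSB/EiJ from Mus musculus domesticus, the subspecies from which most of the genome of classical laboratory strains descends. Each subspecies is represented here by 1 strain, so strain and subspecies cannot be told apart.

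The labelled tissue was checked against retinal markers. Gnat1, the alpha subunit of rod transducin, was at 2059 ± 170.0 CPM in CAST/EiJ, 2220 ± 149 CPM in PWK/PhJ and 1806 ± 133 CPM in WSB/EiJ (mean ± SD, n = 3 each), and it passed against WSB/EiJ in PWK/PhJ (0.30, q = 0.00318) and not in CAST/EiJ (0.19, q = 0.0252). Pax6 of amacrine cells (95.3 to 111 CPM over the 9 libraries) and Glul of Müller glia (499.5 to 555 CPM) were also present, and neither Pax6 nor Glul passed the test against WSB/EiJ in CAST/EiJ or PWK/PhJ. Rbpms of ganglion cells was at 4.55 to 6.15 CPM. Lhx1 of horizontal cells was at 0.222 to 0.606 CPM, under the limit on the mean.

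The value of a count, read from the steps between low CPM values, put the total at 57607000 to 77886000 reads per library (median 70453000). CAST/EiJ libraries held 72972000 to 77886000 reads, more than those of PWK/PhJ (58627000 to 70453000) and of WSB/EiJ (57607000 to 71815000). A level of 3 reads corresponds to 0.0385 to 0.0521 CPM, and a gene without reads is listed at 0.0001. A limit of this kind covers counting error only. Pearson's r across genes was 0.994 to 0.997 within a strain, 0.961 to 0.965 between CAST/EiJ and PWK/PhJ libraries, 0.956 to 0.961 between CAST/EiJ and WSB/EiJ, and 0.957 to 0.960 between PWK/PhJ and WSB/EiJ. Genes are not independent replicates in such an r. The first principal component held 48.6% of the variance and placed the WSB/EiJ libraries at -34.6 to -35.4 and the other libraries at 14.8 to 20.4, and the next component (41.9%) separated CAST/EiJ from PWK/PhJ.

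The labels do not give the sex of the mice, and 2 of the 9 libraries stood apart in genes of the sex chromosomes. Xist, the RNA that silences an X chromosome in female cells, was at 1081 CPM in PWK/PhJ replicate 2, 1046 CPM in CAST/EiJ replicate 3, 9.71 CPM in CAST/EiJ replicate 2 and at most 0.341 CPM in the other 6 libraries. Ddx3y, an RNA helicase gene of the Y chromosome, was at 0.0172 CPM in PWK/PhJ replicate 2, at 0.0001 CPM in CAST/EiJ replicate 3 and at 24.8 CPM or more elsewhere. Both libraries were kept, since the genes tested are not on X or Y, and leading counts are also given without them, a choice made after seeing the data.

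Between CAST/EiJ and WSB/EiJ, 3389 genes were higher (21.5%) and 3296 lower (20.9%) in CAST/EiJ at a q-value under 0.01, from limma on log2(CPM + 1). In PWK/PhJ, 3941 genes were higher (25.0%) and 2599 lower (16.5%) than in WSB/EiJ. The PWK/PhJ split moved with the scaling: 60.3% of its differing genes were higher as deposited, and with median-ratio scaling this share was 50.4%, with quantile normalization 49.5%. The genes of the rule were higher in both strains in 1815 cases (11.5%) and lower in both in 1450 (9.21%), with more genes lower than higher under median-ratio scaling (1619 higher, 1692 lower), quantile normalization (1569 higher, 1665 lower) and no limit on the mean (1584 higher, 1697 lower). Without the 2 libraries with high Xist these counts were 1216 and 1040, and 4847 genes differed in CAST/EiJ and 4893 in PWK/PhJ, against 6685 and 6540 with them. That fit holds fewer libraries, which by itself can lower the counts. Both comparisons share the 3 WSB/EiJ libraries, so a high or low value there moves both differences together.

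Most of these differences were small. The smaller of the 2 differences was under 0.5 on the log2 scale in 2368 of the 3265 genes (72.5%), and the median size came to 0.43 in CAST/EiJ and 0.44 in PWK/PhJ. A difference of at least 2-fold in both strains was found for 111 genes higher (0.705%) and 125 genes lower (0.794%), of which 42 and 76 were protein coding. Without the libraries with high Xist the counts were 111 and 124, and with a pseudocount of 0.1 they were 279 and 238. In 3176 of the 3265 genes the 6 CAST/EiJ and PWK/PhJ libraries did not overlap the 3 of WSB/EiJ, against 28.4% of all genes tested, and this held for 236 of the 236 genes with at least 2-fold differences. CAST/EiJ and PWK/PhJ also differed from each other, in 6403 genes (40.7%). That count was 4007 without the libraries with high Xist, and 4995 to 5514 without any 1 library of CAST/EiJ or PWK/PhJ. Fewer libraries can by themselves lower such a count, and the part of sex was not tested.

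Among protein-coding genes higher in both strains, Gm and Rik symbols left out, Plekhg1, which encodes a guanine nucleotide exchange factor of small GTPases, led the order by the smaller difference. Zfp738, a zinc finger gene, and Cd207, the lectin langerin of Langerhans cells, came next. Differences below are of mean log2(CPM + 1) with the SE of the fit, a scale that understates the change of low genes, and q is from limma. A gene with a mean under 0.5 CPM on the lower side of the comparison was tested only through its higher side. The q of such a gene is no support. Outside the lists of cell types, the higher genes concerned are Cd207, Apobec2, Tuba1c, Gm13341, Gm13339 and those without reads in WSB/EiJ. Rankings and overlaps below concern the 9 libraries of the 3 strains compared, except where classical strains are named. In bulk tissue, fewer cells of a type and less RNA per cell cannot be told apart.

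Plekhg1 (chr10:3740364-3967304) was at 49.95, 49.1 and 45.7 CPM in CAST/EiJ, 57.1, 52.3 and 53.3 CPM in PWK/PhJ and 1.46, 1.504 and 1.16 CPM in WSB/EiJ. All 6 CAST/EiJ and PWK/PhJ libraries lay far above the 3 of WSB/EiJ, and the difference was 4.38 ± 0.07 (q = 5.14e-16) in CAST/EiJ and 4.54 ± 0.07 (q = 3.81e-16) in PWK/PhJ. Its classical strain means were 4.82 to 7.95 CPM. Zfp738 (chr13:67658685-67687072) was at 35.2, 35.4 and 34.7 CPM in CAST/EiJ, 22.2, 24.4 and 23.4 CPM in PWK/PhJ and 0.863, 1.08 and 0.834 CPM in WSB/EiJ. WSB/EiJ was alone low among the 8 strains, the classical means being 25.7 to 36.7 CPM, and the differences were 4.23 ± 0.07 (q = 5.14e-16) in CAST/EiJ and 3.66 ± 0.07 (q = 2.79e-15) in PWK/PhJ. Zfp738 shares 17.8% of its 50-base words with transcripts of 128 other genes, so its level is uncertain. Cd207 (chr6:83671215-83677858) was at 6.45, 6.42 and 4.27 CPM in CAST/EiJ, 5.00, 5.22 and 5.69 CPM in PWK/PhJ and 0.137, 0.0976 and 0.0869 CPM in WSB/EiJ. Neither strain overlapped WSB/EiJ (2.58 ± 0.11, q = 4.73e-11 in CAST/EiJ and 2.51 ± 0.11, q = 6.72e-11 in PWK/PhJ), and all classical means were at or under 0.121 CPM.

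Bst1, an ADP-ribosyl cyclase on the cell surface, was at 22.3, 20.8 and 22.4 CPM in CAST/EiJ, 6.47, 6.84 and 5.31 CPM in PWK/PhJ and 1.30, 1.36 and 0.99 CPM in WSB/EiJ. CAST/EiJ was the highest of the 3 strains and WSB/EiJ the lowest without overlap (3.37 ± 0.09, q = 2.14e-13 in CAST/EiJ and 1.70 ± 0.09, q = 5.02e-10 in PWK/PhJ). Postn, which encodes the matrix protein periostin, was at 6.65, 6.33 and 6.74 CPM in CAST/EiJ, 3.55, 4.18 and 4.32 CPM in PWK/PhJ and 0.652, 0.474 and 0.521 CPM in WSB/EiJ. Periostin RNA rose by 2.29 ± 0.08 (q = 3.88e-12) in CAST/EiJ and 1.69 ± 0.08 (q = 1.28e-10) in PWK/PhJ, and the classical means of 1.95 to 6.70 CPM were all above WSB/EiJ. Abhd14a was at 15.8, 14.6 and 14.7 CPM in CAST/EiJ, 11.005, 12.5 and 11.95 CPM in PWK/PhJ and 3.08, 3.05 and 3.19 CPM in WSB/EiJ. The 6 libraries were above 10 CPM and those of WSB/EiJ near 3 (1.96 ± 0.07, q = 2.64e-12 in CAST/EiJ and 1.64 ± 0.07, q = 2.05e-11 in PWK/PhJ). On the opposite strand 9.8% of its exon bases overlap Abhd14b, and summed over both genes the differences were -0.15 and 0.06, so the difference of Abhd14a is uncertain. Apobec2, a gene of the cytidine deaminase family best known from muscle, was at 9.09, 8.54 and 9.65 CPM in CAST/EiJ, 4.57, 4.06 and 4.05 CPM in PWK/PhJ and 0.0153, 0.014 and 0.0348 CPM in WSB/EiJ. Its WSB/EiJ values correspond to less than 3 reads, so no fold is given, and all 6 other libraries were higher (q = 2.91e-14 in CAST/EiJ and 1.07e-12 in PWK/PhJ).

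Bbs5 (chr2:69647171-69667572), a subunit of the BBSome that carries membrane proteins of cilia including the photoreceptor outer segment, was at 19.3, 18.6 and 19.7 CPM in CAST/EiJ, 17.6, 18.1 and 15.2 CPM in PWK/PhJ and 4.94, 4.90 and 4.67 CPM in WSB/EiJ. The WSB/EiJ libraries were the low ones (1.79 ± 0.07, q = 1.02e-11 in CAST/EiJ and 1.62 ± 0.07, q = 3.36e-11 in PWK/PhJ), and the classical means were 15.2 to 20.3 CPM. Zfp937 was at 10.9, 9.78 and 10.9 CPM in CAST/EiJ, 9.80, 11.2 and 9.55 CPM in PWK/PhJ and 2.37, 2.83 and 2.16 CPM in WSB/EiJ. It shares 29.4% of its words with other genes, mainly Zfp442, and summed over both genes the difference came to 0.04 in CAST/EiJ and -0.14 in PWK/PhJ, so the level of Zfp937 by itself is uncertain. Tuba1c, an alpha tubulin, was at 5.99, 6.33 and 8.39 CPM in CAST/EiJ, 4.97, 4.603 and 3.36 CPM in PWK/PhJ and 0.541, 0.178 and 0.145 CPM in WSB/EiJ. Shared words made up 52.7% of Tuba1c, mostly with Tuba1b, and the summed difference came to -0.46 in CAST/EiJ and 0.16 in PWK/PhJ, so the difference of Tuba1c is uncertain as well.

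Sfi1 (chr11:3131850-3193464), which encodes a centrin-binding protein of the centrosome, was at 122, 114 and 107 CPM in CAST/EiJ, 81.1, 69.4 and 75.6 CPM in PWK/PhJ and 21.7, 20.9 and 20.4 CPM in WSB/EiJ. All classical means (15.8 to 22.6 CPM) lay near WSB/EiJ, and both strains were higher (2.39 ± 0.07, q = 2.27e-13 in CAST/EiJ and 1.79 ± 0.07, q = 5.37e-12 in PWK/PhJ). Pisd (chr5:32736301-32785647), the mitochondrial phosphatidylserine decarboxylase, was at 56.5, 49.5 and 59.0 CPM in CAST/EiJ, 31.9, 31.6 and 32.8 CPM in PWK/PhJ and 8.004, 9.01 and 7.67 CPM in WSB/EiJ. Pisd rose by 2.60 ± 0.07 (q = 2.28e-13) in CAST/EiJ and 1.85 ± 0.07 (q = 1.09e-11) in PWK/PhJ, but 20.9% of its exon bases overlap Gm20671 on the same strand, which makes its level uncertain. Sfi1 lies in a run of 5 neighbouring genes that were all higher in both strains, chr11:3125904-3266416, together with Pisd-ps1, Gm11400, Drg1 and Eif4enif1. The pseudogene Pisd-ps1 of this run had means of 95.0 CPM in CAST/EiJ, 43.7 CPM in PWK/PhJ and 5.65 CPM in WSB/EiJ. The median differences over the run were 1.89 in CAST/EiJ and 1.45 in PWK/PhJ.

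**Figure D1:**
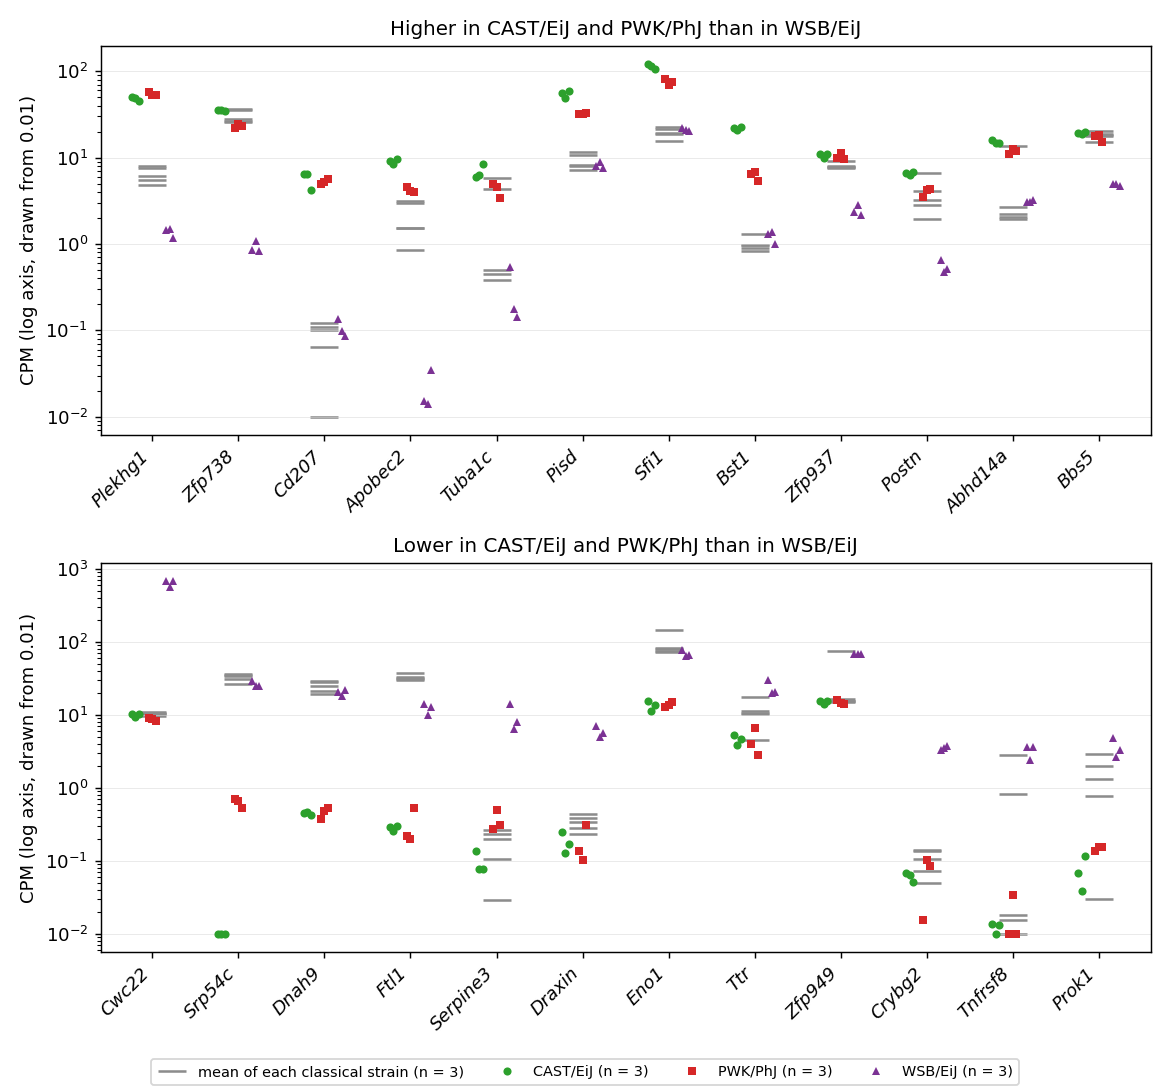
CPM on a log axis of the 12 protein-coding genes (Gm and Rik symbols left out) highest and the 12 lowest in both strains against WSB/EiJ, with 1 point per library (circles CAST/EiJ, squares PWK/PhJ, triangles WSB/EiJ, n = 3 each) and grey dashes for the mean of each classical strain (n = 3 each). Values under 0.01 are drawn at 0.01; for Cwc22, Serpine3, Draxin and Crybg2 the triangles stand apart from all other strains, and for Srp54c, Dnah9 and Ftl1 the grey dashes lie with or above the triangles.

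Lower in both strains were Cwc22, a splicing factor also needed to load the exon junction complex, Dnah9, a dynein heavy chain of motile cilia, Draxin, an axon guidance protein, and Serpine3, a gene of the serine protease inhibitor family. For some of them WSB/EiJ alone was high among the 8 strains, and for others CAST/EiJ and PWK/PhJ alone were low. Tested only through WSB/EiJ were Dnah9, Serpine3, Draxin, Crybg2, Tnfrsf8, Prok1, Srp54c, Ftl1, Gm20139, Cbx3-ps6 and Gm15983, so their q is no support.

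Cwc22 (chr2:77881159-77946376) was at 10.2, 9.37 and 10.4 CPM in CAST/EiJ, 8.96, 8.83 and 8.33 CPM in PWK/PhJ and 686, 563 and 684 CPM in WSB/EiJ. No other strain came near WSB/EiJ, the classical means being 9.81 to 10.9 CPM, and the differences were -5.87 ± 0.07 (q = 5.79e-17) in CAST/EiJ and -6.05 ± 0.07 (q = 3.17e-17) in PWK/PhJ. Cwc22 shares 18.5% of its words, mainly with Gm13691, so its level is uncertain, and summed over both genes the differences were -5.87 and -6.05. Gm13691 had means of at most 0.434 CPM, so that sum adds no support. The number of gene copies in each strain was not measured. Gm13727 overlaps Cwc22 and had means of 0.0001 CPM in the 7 other strains but was at 2.63, 2.98 and 2.57 CPM in WSB/EiJ, and 36.8% of its words are shared with Cwc22, so the 2 cannot be told apart.

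Serpine3 was at 0.137, 0.0771 and 0.0784 CPM in CAST/EiJ, 0.275, 0.495 and 0.312 CPM in PWK/PhJ and 13.9, 6.53 and 7.90 CPM in WSB/EiJ. WSB/EiJ was high against all 7 other strains (classical means 0.0291 to 0.266 CPM), and the differences were -3.19 ± 0.17 (q = 6.44e-10) in CAST/EiJ and -2.88 ± 0.17 (q = 2.07e-09) in PWK/PhJ. On the opposite strand 24.8% of its exon bases overlap Ints6, and since use of strand in counting is not stated, the level of Serpine3 is uncertain (summed with Ints6, -0.40 and -0.44). Draxin (chr4:148098437-148130699) was at 0.247, 0.128 and 0.17 CPM in CAST/EiJ, 0.138, 0.102 and 0.312 CPM in PWK/PhJ and 7.12, 5.05 and 5.73 CPM in WSB/EiJ. The WSB/EiJ libraries stood above every other library of the 3 strains (-2.55 ± 0.10, q = 1.72e-11 in CAST/EiJ and -2.55 ± 0.10, q = 1.71e-11 in PWK/PhJ) and above the classical means of 0.238 to 0.441 CPM. Crybg2 was at 0.0686, 0.0643 and 0.0523 CPM in CAST/EiJ, 0.0154, 0.102 and 0.0853 CPM in PWK/PhJ and 3.33, 3.58 and 3.78 CPM in WSB/EiJ. Classical means were 0.0496 to 0.142 CPM, again far under WSB/EiJ (-2.10 ± 0.07, q = 1.22e-12 in CAST/EiJ and -2.10 ± 0.07, q = 1.22e-12 in PWK/PhJ).

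Dnah9 (chr11:65831282-66168552) was at 0.452, 0.475 and 0.431 CPM in CAST/EiJ, 0.382, 0.478 and 0.525 CPM in PWK/PhJ and 20.7, 18.2 and 21.99 CPM in WSB/EiJ. Here CAST/EiJ and PWK/PhJ were the low strains, with classical means of 19.1 to 29.1 CPM, and the differences were -3.87 ± 0.08 (q = 1.16e-14) and -3.86 ± 0.08 (q = 1.07e-14). Zfp949 was at 15.6, 14.2 and 15.6 CPM in CAST/EiJ, 16.2, 14.7 and 14.1 CPM in PWK/PhJ and 68.8, 67.7 and 68.9 CPM in WSB/EiJ. NZO/HlLtJ, with a mean of 75.6 CPM, was the classical strain on the WSB/EiJ side, while the lowest classical mean was 14.9 CPM (-2.11 ± 0.06, q = 4.14e-13 in CAST/EiJ and -2.12 ± 0.06, q = 3.51e-13 in PWK/PhJ). Tnfrsf8, which encodes the receptor CD30, was at 0.0138, 0.0001 and 0.0132 CPM in CAST/EiJ, 0.0001, 0.0342 and 0.0001 CPM in PWK/PhJ and 3.67, 2.40 and 3.61 CPM in WSB/EiJ. All 6 values outside WSB/EiJ correspond to less than 3 reads, so no fold is given (q = 1.66e-10 and 1.73e-10). Prok1, the secreted factor prokineticin 1, was at 0.0686, 0.0386 and 0.118 CPM in CAST/EiJ, 0.138, 0.154 and 0.156 CPM in PWK/PhJ and 4.90, 2.66 and 3.30 CPM in WSB/EiJ. WSB/EiJ was higher without overlap (-2.08 ± 0.12, q = 1.78e-09 in CAST/EiJ and -1.98 ± 0.12, q = 3.04e-09 in PWK/PhJ), but 35.4% of the Prok1 exon bases lie opposite A630076J17Rik and the level is uncertain.

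Srp54c, a copy of the gene for the signal peptide binding subunit of the signal recognition particle, was at 0.0001, 0.0001 and 0.0001 CPM in CAST/EiJ, 0.699, 0.659 and 0.534 CPM in PWK/PhJ and 29.6, 24.7 and 25.1 CPM in WSB/EiJ. CAST/EiJ was at 0.0001 CPM after rounding in all 3 libraries, under 3 reads, and PWK/PhJ was under 1 CPM (-4.07 ± 0.08, q = 7.69e-15 against WSB/EiJ). With 93.9% of its words shared, nearly all with Srp54b, the reads of Srp54c are uncertain, and the sum of both differed from WSB/EiJ by -1.63 in CAST/EiJ and -1.64 in PWK/PhJ. Ftl1, the ferritin light chain, was at 0.296, 0.262 and 0.307 CPM in CAST/EiJ, 0.22, 0.197 and 0.536 CPM in PWK/PhJ and 14.0, 9.99 and 13.0 CPM in WSB/EiJ. Its shared words came to 58.4%, mainly with Ftl1-ps1, and the sum of both differed by -0.69 and -0.48. Eno1, the glycolytic enzyme alpha-enolase, was at 15.7, 11.3 and 13.6 CPM in CAST/EiJ, 12.9, 13.5 and 15.3 CPM in PWK/PhJ and 78.2, 65.0 and 66.2 CPM in WSB/EiJ. Eno1b, which holds 25.3% of the words of Eno1, was at means of 347.5, 342.7 and 263.1 CPM in the same order, and the sum of both differed by 0.12 and 0.10, so for Ftl1 and Eno1 the deposited difference is uncertain.

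The genes with the largest differences of other classes lie side by side on chr2:22587291-22590534. Gm13340 was at 1713, 1623 and 2022 CPM in CAST/EiJ, 1345, 1270 and 1094 CPM in PWK/PhJ and 0.594, 0.615 and 0.594 CPM in WSB/EiJ. Gm13341 was at 523, 489 and 652 CPM in CAST/EiJ, 233, 221 and 191 CPM in PWK/PhJ and 0.0788, 0.101 and 0.108 CPM in WSB/EiJ. Gm13339 was at 59.5, 52.1 and 65.1 CPM in CAST/EiJ, 56.7, 41.7 and 38.6 CPM in PWK/PhJ and 0.0491, 0.0001 and 0.0941 CPM in WSB/EiJ. All 3 are pseudogenes that share words with mitochondrial genes, 30.0% (mainly mt-Co1), 36.0% (mt-Co2) and 17.6% (mt-Nd2). Summed with these partners the differences were 0.48 in CAST/EiJ and -0.17 in PWK/PhJ for Gm13340, 1.20 and 0.42 for Gm13341 and 0.56 and -0.03 for Gm13339, so their reads are uncertain. Gm13340 had a mean of 133 CPM in NZO/HlLtJ, the highest classical mean, against a lowest of 0.607 CPM.

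Among genes of these classes lower in both strains, Gm20139 was at 14.5, 14.6 and 12.3 CPM in WSB/EiJ and at most 0.0154 CPM in the 6 other libraries. Cbx3-ps6 was at 12.7, 12.1 and 11.9 CPM in WSB/EiJ and at most 0.0508 CPM in the other 6. All of the words of Cbx3-ps6 are shared with other genes, and its level is uncertain (summed with its main partner Gm49164, -3.65 and -3.68). Gm49164 had means of at most 0.0393 CPM, so that sum adds no support. Gm15983 was at 0.11, 0.09 and 0.118 CPM in CAST/EiJ, 0.0765, 0.119 and 0.0711 CPM in PWK/PhJ and 13.7, 9.06 and 13.1 CPM in WSB/EiJ. WSB/EiJ was higher without overlap (-3.53 ± 0.11, q = 1.22e-12 in CAST/EiJ and -3.55 ± 0.11, q = 1.07e-12 in PWK/PhJ).

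Some genes had no read in WSB/EiJ or in the other strains. All 28802 genes in the table were searched for this, except those on X and Y. In WSB/EiJ only, 105 genes were listed at 0.0001 CPM in all 3 libraries and above it in all 6 others, and 77 genes showed the reverse. The sides ask for no reads in 3 and in 6 libraries, at unlike depth, so these counts cannot be compared. Most of these genes were under the limit on the mean, 11 of the 105 and 3 of the 77 being among the genes tested. The total of 182 was 274 without WSB/EiJ replicate 1, 314 without replicate 2 and 280 without replicate 3. Rps12-ps10, a ribosomal protein pseudogene, was at 9.67, 9.54 and 10.5 CPM in CAST/EiJ, 10.1, 9.03 and 8.53 CPM in PWK/PhJ and 0.0001, 0.0001 and 0.0001 CPM in WSB/EiJ. Gm43305 was at 6.23, 6.69 and 6.01 CPM in CAST/EiJ, 6.94, 6.37 and 7.26 CPM in PWK/PhJ and 0.0001, 0.0001 and 0.0001 CPM in WSB/EiJ. Gm11410 was at 6.58, 6.29 and 7.34 CPM in CAST/EiJ, 0.689, 0.581 and 0.782 CPM in PWK/PhJ and 0.0001, 0.0001 and 0.0001 CPM in WSB/EiJ. These genes had reads in each of the 6 CAST/EiJ and PWK/PhJ libraries, as had Gm34144, Rpl15-ps2 and Gm37993. On the other side, Gm8210 was at 4.78, 3.89 and 4.55 CPM in WSB/EiJ and Gm44196 at 1.80, 1.57 and 1.22 CPM. Lypd10, Gm44237 and Gm13361 had reads in WSB/EiJ at lower means (0.422, 0.617 and 0.302 CPM). All of these were listed at 0.0001 CPM in the 6 CAST/EiJ and PWK/PhJ libraries. Rps12-ps10 shares 48.6% of its words with other genes, Gm43305 17.8%, Gm34144 28.1%, Rpl15-ps2 84.2%, Gm37993 59.7% and Gm8210 all of them, and their levels are uncertain. Summed with their main partners, Gm34144 (with Fryl) differed by -0.12 in CAST/EiJ and by -0.39 in PWK/PhJ, and Gm37993 (with Gm38214) by 1.07 and 0.12. The other sums kept their side, at 1.61 and 1.48 for Rps12-ps10, 3.07 and 3.29 for Gm43305, 3.08 and 3.17 for Rpl15-ps2 and -3.29 and -3.28 for Gm8210. For Gm43305, Rpl15-ps2 and Gm8210 the mean of the partner was also under 3 reads on the low side. Their sums therefore add no support.

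By class of gene, 20.5% of 12418 protein-coding genes differed in the same direction, 25.6% of 924 lncRNA genes, 27% of 1066 pseudogenes, 14.2% of 1256 genes of class TEC (transcripts still to be checked by experiment) and 26.9% of 78 others. Differences of at least 2-fold in both strains made up 0.95%, 4.65%, 5.91%, 0.637% and 5.13% of these classes in the same order. Over autosomes the share of same-direction genes ran from 18.2% on chromosome 17 to 22.4% on chromosome 12. Runs of at least 5 neighbouring genes in the same direction occurred 4 times. At chr2:175129493-175384202 the 6 genes Gm14399, Gm14443, Gm14391, Gm14440, Gm4631 and Zfp968 were higher, with median differences of 1.22 in CAST/EiJ and 1.02 in PWK/PhJ. Another 5 genes at chr2:175741537-175980304, among them the zinc finger gene Zfp966, were higher by medians of 0.74 and 1.93. At chr8:57523828-57653033 the 5 genes were lower (medians -0.81 and -1.12), and they include Galnt7, an enzyme of mucin-type O-glycosylation, at means of 22.5 CPM in CAST/EiJ, 24.0 CPM in PWK/PhJ and 41.4 CPM in WSB/EiJ.

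The 5 classical strains were then placed on either side of the midpoint between WSB/EiJ and the average of CAST/EiJ and PWK/PhJ, as a description without test. All 5 lay on the WSB/EiJ side for 1026 of the 3265 same-direction genes (31.4%), beside 23% of all genes tested, and all 5 lay on the other side for 482 (14.8%), beside 15.7%. Without the libraries with high Xist the first of these counts was 783. For the 111 genes at least 2-fold higher these were 53 genes (47.7%) and 10 genes (9.01%), and for the 125 at least 2-fold lower 40 genes (32%) and 24 genes (19.2%). C57BL/6J was on the WSB/EiJ side for 1971 same-direction genes (60.4%, beside 54% of all genes tested), A/J for 2067 (63.3%, beside 57%) and NZO/HlLtJ for 1891 (57.9%, beside 52.1%). Reads of all strains were aligned to the reference genome, which is of C57BL/6J, and a lower level cannot be told apart from reads lost at bases where a strain differs from it.

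**Figure D2:**
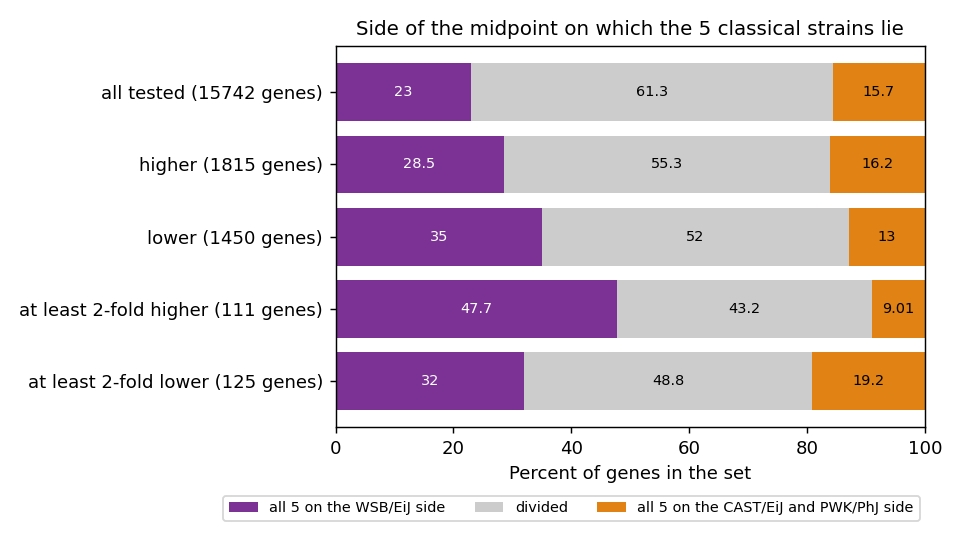
Percent of genes (x axis) for which all 5 classical strains lie on the WSB/EiJ side, on the CAST/EiJ and PWK/PhJ side, or on both sides of the midpoint, for all genes tested and for the sets called in the same direction. All 5 lie on the WSB/EiJ side for 23% of all genes tested and 47.7% of those at least 2-fold higher.

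Retinal genes were followed by lists of cell types and pathways. Each list is given by its counts higher and lower in both strains, which over all genes tested were 11.5% and 9.21%, and by its median difference, which over all genes tested came to 0.01 in CAST/EiJ and 0.05 in PWK/PhJ. A list gene with a mean under 0.5 CPM on the lower side of the comparison was tested only through its higher side. This favours a call. Of the list genes given with values below, the genes concerned are Th, Tyr, Bfsp2, Gbp7, Xaf1 and Rpl29.

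Of 19 rod phototransduction genes tested, 4 were higher in both strains (Guca1a, Sag, Grk1 and Slc24a1) and 2 lower (Rgs9 and Gnb5), with medians of 0.21 in CAST/EiJ and 0.08 in PWK/PhJ. Under quantile normalization the medians were 0.00 and -0.01 and the counts 3 and 2, and without the libraries with high Xist the counts were 3 and 2. The count of lower rod genes was 1 without PWK/PhJ replicate 2 or WSB/EiJ replicate 1 and 0 without WSB/EiJ replicate 3. Guca1a (chr17:47394558-47400585), which encodes the guanylate cyclase activator GCAP1, was at 166, 162 and 172 CPM in CAST/EiJ, 140.5, 129 and 124 CPM in PWK/PhJ and 99.0, 69.4 and 93.1 CPM in WSB/EiJ. The WSB/EiJ libraries were the lowest of the 9 (0.94 ± 0.10, q = 8.03e-07 in CAST/EiJ and 0.60 ± 0.10, q = 6.42e-05 in PWK/PhJ). Sag, the rod arrestin, was at 1714, 1760 and 1696 CPM in CAST/EiJ, 1791, 1789 and 1730 CPM in PWK/PhJ and 1444, 1175 and 1419 CPM in WSB/EiJ. Both strains lay above WSB/EiJ (0.36 ± 0.08, q = 0.000542 and 0.40 ± 0.08, q = 0.000258), but under quantile normalization Sag in CAST/EiJ came to 0.00 (q = 0.304), and with no limit on the mean it did not pass (Sag q = 0.0122). Grk1, a photoreceptor kinase that helps end the light response, was at 1182, 1162 and 1145 CPM in CAST/EiJ, 1031, 1035 and 989 CPM in PWK/PhJ and 859.8, 703 and 823 CPM in WSB/EiJ. WSB/EiJ was again the lowest of the 3 strains (0.55 ± 0.07, q = 7.84e-06 and 0.36 ± 0.07, q = 0.000325), and under quantile normalization neither difference passed, at 0.04 in CAST/EiJ (q = 0.0939) and 0.00 in PWK/PhJ (q = 0.32). The classical means were 655 to 830 CPM for Grk1, 89.7 to 107 CPM for Guca1a and 917 to 2210 CPM for Sag.

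Of 9 cone phototransduction genes, 1 was higher and 1 lower (medians -0.12 and 0.35). Pde6h (chr6:136923832-136968866), the inhibitory gamma subunit of the cone phosphodiesterase, was at 31.3, 30.5 and 31.9 CPM in CAST/EiJ, 31.3, 30.9 and 30.2 CPM in PWK/PhJ and 11.6, 9.02 and 9.22 CPM in WSB/EiJ. CAST/EiJ and PWK/PhJ overlapped each other and lay clear of WSB/EiJ (1.57 ± 0.08, q = 1.48e-10 and 1.55 ± 0.08, q = 1.71e-10), with classical means of 12.9 to 32.6 CPM. Opn1sw, the short-wavelength cone opsin, was at 65.1, 57.7 and 57.8 CPM in CAST/EiJ, 120.0, 126 and 126 CPM in PWK/PhJ and 158, 140.4 and 141 CPM in WSB/EiJ. It fell most in CAST/EiJ (-1.27 ± 0.06, q = 1.91e-10) and less in PWK/PhJ (-0.23 ± 0.06, q = 0.00221). In PWK/PhJ the Opn1sw call was lost without PWK/PhJ replicate 1 (-0.21, q = 0.0115) or WSB/EiJ replicate 1 (-0.18, q = 0.0108), and 15.5% of its exon bases lie opposite Calu, so its level is uncertain (summed with Calu, -0.97 and -0.17). The list had 0 genes lower without WSB/EiJ replicate 1, and 2 higher and 2 lower without WSB/EiJ replicate 2. Opn1mw and Arr3 were among the list's genes not tested.

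Outer segment and retinoid cycle genes included 1 higher and 1 lower of 16 (medians 0.11 and 0.04). Rdh8, the retinol dehydrogenase of photoreceptor outer segments, was at 14.8, 14.1 and 14.7 CPM in CAST/EiJ, 22.5, 22.5 and 21.0 CPM in PWK/PhJ and 9.47, 7.44 and 8.54 CPM in WSB/EiJ. PWK/PhJ was the highest and WSB/EiJ the lowest of the 3 strains (0.71 ± 0.07, q = 6.74e-07 in CAST/EiJ and 1.28 ± 0.07, q = 1.12e-09 in PWK/PhJ). Rdh11, a related dehydrogenase, was at 13.0, 14.6 and 14.8 CPM in CAST/EiJ, 12.3, 11.7 and 11.03 CPM in PWK/PhJ and 17.3, 15.6 and 17.3 CPM in WSB/EiJ. Its difference was -0.49 ± 0.07 (q = 1.46e-05) in PWK/PhJ and -0.23 ± 0.07 (q = 0.00402) in CAST/EiJ, where it did not pass without WSB/EiJ replicate 1 (q = 0.0137), WSB/EiJ replicate 3 (q = 0.0199) or CAST/EiJ replicate 1 (Rdh11 q = 0.0265), and without each of these the list had 0 genes lower. In CAST/EiJ Rdh11 did not pass either with no limit on the mean (q = 0.0103), Benjamini-Hochberg adjustment (0.0134) or without the libraries with high Xist (q = 0.0103). It had 2 higher without WSB/EiJ replicate 1 or CAST/EiJ replicate 3.

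At the photoreceptor ribbon synapse, 5 of 17 genes were higher, Stx3, Cabp4, Slc17a7 and Syt1 among them, and 0 lower, with medians of 0.02 and 0.07. The counts were 4 and 1 under both median-ratio scaling and quantile normalization, and 3 and 0 without the libraries with high Xist. Without CAST/EiJ replicate 2 they were 3 higher, and without WSB/EiJ replicate 2 there was 1 lower. Stx3, the syntaxin of ribbon synapses, was at 245, 223 and 247 CPM in CAST/EiJ, 238, 245 and 219.9 CPM in PWK/PhJ and 165, 149 and 149.9 CPM in WSB/EiJ. It rose in both strains without overlap (0.62 ± 0.06, q = 5.81e-07 and 0.59 ± 0.06, q = 9.23e-07). Cabp4, a calcium-binding protein that modulates the photoreceptor calcium channel, was at 78.3, 76.8 and 77.2 CPM in CAST/EiJ, 75.1, 72.2 and 68.3 CPM in PWK/PhJ and 60.0, 46.0 and 50.4 CPM in WSB/EiJ. WSB/EiJ was the lowest of the 3 strains (0.57 ± 0.08, q = 9.27e-06 and 0.46 ± 0.08, q = 6.3e-05). Slc17a7, the vesicular glutamate transporter VGLUT1, was at 254, 293 and 250.1 CPM in CAST/EiJ, 296, 318 and 365 CPM in PWK/PhJ and 225, 157 and 228 CPM in WSB/EiJ. PWK/PhJ rose by 0.70 ± 0.12 (q = 8.74e-05) and CAST/EiJ by 0.40 ± 0.12 (q = 0.00414), and the Slc17a7 difference of CAST/EiJ was 0.23 (q = 0.0113) without WSB/EiJ replicate 2 and 0.33 (q = 0.0178) without CAST/EiJ replicate 2. That call of Slc17a7 was also lost with no limit on the mean (q = 0.0225), Benjamini-Hochberg adjustment (0.0138) and without the libraries with high Xist (q = 0.0136).

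ON bipolar cells answer photoreceptor glutamate through the receptor mGluR6 and the channel TRPM1. Of 15 genes of this signalling, 4 were lower in both strains (Trpm1, Grm6, Gpr179 and Gnb5) and 0 higher, with medians of -0.10 in CAST/EiJ and -0.12 in PWK/PhJ. Under either other scaling 6 were lower, and without WSB/EiJ replicate 1 there were 3. Trpm1 (chr7:64153835-64269776) was at 149, 141 and 139 CPM in CAST/EiJ, 136, 126 and 126 CPM in PWK/PhJ and 251, 219.8 and 247 CPM in WSB/EiJ. The WSB/EiJ libraries were all above 219 CPM and the other 6 under 150 (-0.74 ± 0.06, q = 5.67e-08 and -0.88 ± 0.06, q = 8.34e-09), and the classical means were 175 to 219 CPM. Grm6, which encodes mGluR6, was at 19.0, 19.5 and 16.6 CPM in CAST/EiJ, 21.0, 20.1 and 23.5 CPM in PWK/PhJ and 35.4, 28.6 and 35.9 CPM in WSB/EiJ. Both strains fell without overlap (-0.82 ± 0.09, q = 9.81e-07 and -0.60 ± 0.09, q = 2.07e-05), and 11% of its exon bases lie opposite Gm12660, so the level of Grm6 is uncertain (summed with Gm12660, -0.81 and -0.59). Gm12660 had means of at most 0.352 CPM, so that sum adds no support. Gpr179, which anchors regulators of this cascade, was at 43.6, 48.4 and 38.4 CPM in CAST/EiJ, 72.1, 73.1 and 83.1 CPM in PWK/PhJ and 95.7, 89.0 and 100.02 CPM in WSB/EiJ. CAST/EiJ was lower than PWK/PhJ (-1.11 ± 0.08, q = 1.19e-08 against -0.32 ± 0.08, q = 0.0015 from WSB/EiJ), and without PWK/PhJ replicate 2 the Gpr179 difference of PWK/PhJ was -0.29 (q = 0.0103).

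**Figure D3:**
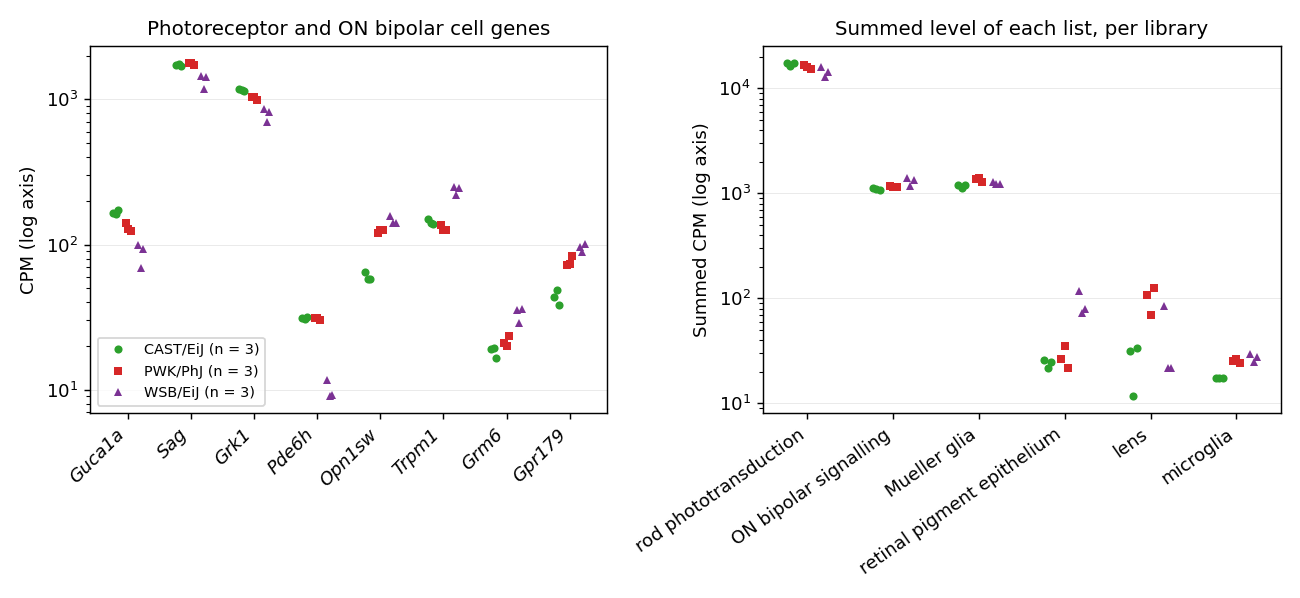
Left, CPM on a log axis of photoreceptor and ON bipolar cell genes, and right, summed CPM on a log axis of lists of retinal and other cell types, 1 point per library (n = 3 per strain). Of the 3 strains, Trpm1, Grm6 and Gpr179 are highest in WSB/EiJ, Guca1a and Pde6h are lowest there, and the retinal pigment epithelium sum of every WSB/EiJ library lies above those of the other 6.

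Among 13 bipolar cell markers 1 was higher and 3 lower (Tacr3, Vsx1 and Isl1), with medians of -0.08 and -0.09. Without WSB/EiJ replicate 2 there were 6 lower, and without WSB/EiJ replicate 3 there was 1. Cabp5, a calcium-binding protein of bipolar cells, was at 66.8, 59.2 and 67.7 CPM in CAST/EiJ, 69.8, 72.2 and 62.5 CPM in PWK/PhJ and 47.4, 40.5 and 42.0 CPM in WSB/EiJ. It was the higher gene (0.57 ± 0.07, q = 6.42e-06 and 0.64 ± 0.07, q = 1.86e-06). Tacr3, the neurokinin 3 receptor of OFF bipolar cells, was at 5.48, 4.96 and 4.93 CPM in CAST/EiJ, 5.78, 6.38 and 5.72 CPM in PWK/PhJ and 7.59, 8.02 and 8.14 CPM in WSB/EiJ. WSB/EiJ was the highest of the 3 strains (-0.54 ± 0.07, q = 6.24e-06 and -0.36 ± 0.07, q = 0.000246). Vsx1, a transcription factor of cone bipolar cells, was at 7.36, 6.33 and 7.27 CPM in CAST/EiJ, 5.55, 5.41 and 5.58 CPM in PWK/PhJ and 10.05, 7.71 and 9.93 CPM in WSB/EiJ. Its difference was -0.35 ± 0.09 (q = 0.00168) in CAST/EiJ, with q = 0.011 without WSB/EiJ replicate 3, and -0.64 ± 0.09 (q = 1.38e-05) in PWK/PhJ.

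Of 20 amacrine cell markers, 4 were higher and 3 lower (medians -0.06 and 0.13), with 1 lower without WSB/EiJ replicate 3. Gad2, an enzyme of GABA synthesis, was at 19.2, 19.2 and 20.5 CPM in CAST/EiJ, 16.4, 17.2 and 17.3 CPM in PWK/PhJ and 12.9, 14.2 and 12.8 CPM in WSB/EiJ. Tac1, which encodes substance P, was at 3.71, 3.39 and 3.58 CPM in CAST/EiJ, 3.64, 3.58 and 3.52 CPM in PWK/PhJ and 2.17, 2.56 and 2.36 CPM in WSB/EiJ. Th, the rate-limiting enzyme of dopamine synthesis, was at 0.959, 0.873 and 0.692 CPM in CAST/EiJ, 1.25, 1.25 and 1.26 CPM in PWK/PhJ and 0.47, 0.432 and 0.521 CPM in WSB/EiJ. For these 3 genes WSB/EiJ was the lowest of the 3 strains, and the difference of Th was 0.32 ± 0.07 (q = 0.000607) in CAST/EiJ and 0.61 ± 0.07 (q = 2.02e-06) in PWK/PhJ. Th was also the 1 gene higher of 9 tested in the dopamine and melatonin list, with 0 lower (medians 0.01 and 0.08), and 2 were higher without WSB/EiJ replicate 1. As its WSB/EiJ mean was under 0.5 CPM, Th was tested only through CAST/EiJ and PWK/PhJ, and its place in both counts is no support.

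Horizontal cell markers had 0 higher and 2 lower of 8 (medians -0.20 and -0.05). Prox1, a transcription factor also of amacrine and bipolar cells, was at 67.8, 67.4 and 65.3 CPM in CAST/EiJ, 72.8, 73.8 and 76.0 CPM in PWK/PhJ and 91.0, 96.7 and 90.8 CPM in WSB/EiJ. Calb1, the calcium buffer calbindin, was at 16.2, 15.998 and 17.4 CPM in CAST/EiJ, 13.3, 14.9 and 14.0 CPM in PWK/PhJ and 20.3, 19.6 and 20.1 CPM in WSB/EiJ. For both genes WSB/EiJ lay above the 6 libraries of CAST/EiJ and PWK/PhJ, and the highest classical means were 91.7 CPM for Prox1 and 21.4 CPM for Calb1. Ganglion cell markers had 0 higher and 1 lower of 19 (medians -0.20 and 0.13). Thy1, a surface glycoprotein of ganglion cells, was at 17.1, 15.3 and 17.9 CPM in CAST/EiJ, 28.9, 25.3 and 21.8 CPM in PWK/PhJ and 30.3, 31.2 and 30.7 CPM in WSB/EiJ. In CAST/EiJ it fell clear of the other strains (-0.84 ± 0.08, q = 4.76e-07), while in PWK/PhJ (-0.28 ± 0.08, q = 0.00453) the Thy1 call was lost without PWK/PhJ replicate 2 (q = 0.016), PWK/PhJ replicate 3 (q = 0.0244), WSB/EiJ replicate 2 (q = 0.0104) or WSB/EiJ replicate 3 (q = 0.0129). No limit on the mean (Thy1 q = 0.0181), Benjamini-Hochberg adjustment (0.0147) and leaving out the libraries with high Xist (q = 0.0172) also lost it. Without WSB/EiJ replicate 2 the ganglion cell list had 1 gene higher.

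Müller glia had 1 gene higher and 1 lower of 18 (medians -0.10 and 0.15). Clu, the secreted chaperone clusterin, was at 63.0, 55.7 and 66.7 CPM in CAST/EiJ, 64.1, 70.3 and 59.3 CPM in PWK/PhJ and 90.0, 82.1 and 82.8 CPM in WSB/EiJ. It fell in both strains (-0.46 ± 0.07, q = 5.21e-05 and -0.39 ± 0.07, q = 0.000181). Gfap, an intermediate filament protein of astrocytes and of reactive Müller glia, was at 3.89, 2.85 and 4.67 CPM in CAST/EiJ, 6.82, 8.32 and 7.20 CPM in PWK/PhJ and 2.38, 2.60 and 3.21 CPM in WSB/EiJ. PWK/PhJ was higher without overlap (1.18 ± 0.13, q = 9.13e-07), whereas in CAST/EiJ the Gfap libraries overlapped those of WSB/EiJ and the difference was 0.35 ± 0.13 (q = 0.00988). That Gfap call was lost without PWK/PhJ replicate 1 (q = 0.012), 2 (q = 0.0116) or 3 (q = 0.0128), WSB/EiJ replicate 1 (q = 0.0347) or 2 (q = 0.0203), or CAST/EiJ replicate 1 (q = 0.0312) or 3 (q = 0.0637). It was lost as well with all 24 libraries in the fit (q = 0.105), no limit on the mean (q = 0.0382), quantile normalization (q = 0.0109), Benjamini-Hochberg adjustment (0.0328) and without the libraries with high Xist (Gfap 0.22, q = 0.069).

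Of 9 microglia and complement genes tested, 1 was higher and 1 lower (medians -0.30 and -0.11). C4b, complement component 4, was at 1.25, 1.44 and 1.00 CPM in CAST/EiJ, 2.84, 3.84 and 3.42 CPM in PWK/PhJ and 0.803, 0.704 and 0.696 CPM in WSB/EiJ. PWK/PhJ was the highest of the 3 strains (1.33 ± 0.09, q = 1.19e-08), CAST/EiJ differed by 0.36 ± 0.09 (q = 0.00192), which did not pass without CAST/EiJ replicate 2 (C4b 0.29, q = 0.0103), with no limit on the mean (q = 0.0115) or with all 24 libraries in the fit (q = 0.0231), and 34.6% of the words are shared, mainly with C4a, so its level is uncertain (summed with C4a, 0.20 and 1.15). The counts were 0 higher without CAST/EiJ replicate 2 and 2 lower without WSB/EiJ replicate 2. The list summed to 17.3, 17.5 and 17.6 CPM in CAST/EiJ, 25.1, 26.5 and 24.0 CPM in PWK/PhJ and 29.2, 25.0 and 27.7 CPM in WSB/EiJ.

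Endothelium and pericytes had 1 gene higher and 2 lower of 15 (medians -0.22 and -0.07). Kdr, the VEGF receptor 2, which retinal neurons also express, had the highest CPM of this list, at 102, 96.6 and 93.8 CPM in CAST/EiJ, 86.6, 81.5 and 79.5 CPM in PWK/PhJ and 59.9, 53.6 and 47.2 CPM in WSB/EiJ. CAST/EiJ was the highest and WSB/EiJ the lowest of the 3 (0.86 ± 0.07, q = 8.91e-08 and 0.62 ± 0.07, q = 2.65e-06). Vwf, the von Willebrand factor of endothelium, was at 1.30, 1.60 and 0.966 CPM in CAST/EiJ, 0.795, 1.42 and 1.59 CPM in PWK/PhJ and 2.73, 3.45 and 2.90 CPM in WSB/EiJ. Pecam1, an adhesion molecule of endothelium, was at 1.92, 1.95 and 2.25 CPM in CAST/EiJ, 1.94, 2.12 and 1.96 CPM in PWK/PhJ and 2.82, 2.91 and 2.99 CPM in WSB/EiJ. Of the 3 strains WSB/EiJ was the highest for Vwf and Pecam1, opposite to Kdr. Blood had 0 higher and 0 lower of 2 genes tested (medians -0.27 and -0.10), with Hbb-bs, a beta globin, at 3.39 to 11.9 CPM.

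The retinal pigment epithelium lies against the photoreceptors, renews their chromophore and holds melanin, and it can come away with the retina in dissection. Of 11 marker genes tested, 9 were lower in both strains and 0 higher, with medians of -1.01 in CAST/EiJ and -1.02 in PWK/PhJ. Of the 9, Tyr was at most 0.444 CPM in CAST/EiJ and PWK/PhJ libraries and was tested only through its WSB/EiJ values. Its place in this count is no support. The summed level of the 16 listed genes was 25.9, 21.7 and 25.0 CPM in CAST/EiJ, 26.5, 35.2 and 21.7 CPM in PWK/PhJ and 118, 72.4 and 78.9 CPM in WSB/EiJ. All WSB/EiJ libraries were above the 6 of CAST/EiJ and PWK/PhJ. The sum by strain was 69.2 CPM in 129S1/Svlmj, 78.1 CPM in A/J, 47.7 CPM in C57BL/6J, 51.6 CPM in NOD/ShiLtJ and 27.8 CPM in NZO/HlLtJ. Best1, a chloride channel of this epithelium, was listed at 0.0001 CPM in all 3 WSB/EiJ libraries and was at most 0.0765 CPM elsewhere. Mlana was at 0.0419 to 0.349 CPM. The part of these cells in the other results was not tested.

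Rgr, the opsin of pigment epithelium and Müller glia, had the highest CPM of the list, at 6.47, 5.34 and 6.36 CPM in CAST/EiJ, 4.97, 7.97 and 4.00 CPM in PWK/PhJ and 36.6, 20.6 and 21.7 CPM in WSB/EiJ. All 3 WSB/EiJ libraries were above the other 6, and Rgr differed by -1.91 ± 0.20 (q = 8.45e-07) in CAST/EiJ and -2.04 ± 0.20 (q = 4.42e-07) in PWK/PhJ. Ttr, the thyroxine and retinol carrier transthyretin, was at 5.26, 3.86 and 4.74 CPM in CAST/EiJ, 4.00, 6.62 and 2.80 CPM in PWK/PhJ and 30.1, 20.2 and 20.5 CPM in WSB/EiJ. Neither strain overlapped WSB/EiJ (-2.12 ± 0.20, q = 2.64e-07 and -2.21 ± 0.20, q = 1.72e-07), and the highest classical mean was 17.8 CPM. Dct, an enzyme of melanin synthesis, was at 2.33, 1.80 and 2.21 CPM in CAST/EiJ, 3.01, 3.92 and 2.44 CPM in PWK/PhJ and 14.0, 9.22 and 9.86 CPM in WSB/EiJ. Rpe65, the isomerase that renews the chromophore, was at 1.55, 1.18 and 1.501 CPM in CAST/EiJ, 1.30, 1.83 and 0.894 CPM in PWK/PhJ and 5.82, 2.73 and 3.07 CPM in WSB/EiJ. The lowest WSB/EiJ library was above the highest of CAST/EiJ and PWK/PhJ for both Dct and Rpe65 (Rpe65 -0.97 ± 0.19, q = 0.000207 and -1.02 ± 0.19, q = 0.00013). Pmel, Lrat, Rdh5, Tyr and Stra6 were also lower in both strains. Mitf, a transcription factor of pigment cells, was at 3.62, 3.15 and 3.66 CPM in CAST/EiJ, 4.91, 4.37 and 4.58 CPM in PWK/PhJ and 4.46, 4.36 and 3.91 CPM in WSB/EiJ. Tyrp1 was at 1.52, 1.25 and 1.41 CPM in CAST/EiJ, 3.19, 3.92 and 1.93 CPM in PWK/PhJ and 4.73, 2.79 and 3.99 CPM in WSB/EiJ. Mitf and Tyrp1 were lower in CAST/EiJ (Mitf -0.23 ± 0.08, q = 0.00798) and did not pass in PWK/PhJ (Mitf q = 0.0955, Tyrp1 q = 0.0577). Without WSB/EiJ replicate 1, the library with the highest sum, 9 of 11 genes were still lower in both strains, with medians of -0.86 and -0.77.

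Promoters of the pigment epithelium genes lower in both strains were searched for CATGTG, the core of the element that MITF binds in pigment cell genes. The search covered 7 of these genes in RefSeq on GRCm38.p6, which is C57BL/6J sequence and not that of the strains compared. Tyr, tested only through its WSB/EiJ values, is among them. In the 250 bases before the start, CATGTG or its reverse complement CACATG was in 3 of 7, beside 12.3% of 32851 promoters. The photoreceptor motif TAATCC (reverse complement GGATTA), searched in the same way because CRX binds it, was in 2 of 8 promoters of rod, cone and ribbon synapse genes higher in both strains (Guca1a and Sag), beside 6.25%. The Dct promoter is chr14:118052247-118052496 and that of Tyr chr7:87493513-87493762, both on the minus strand and shown 5′ to 3′ up to the base before the start, with CATGTG and CACATG in capitals. A match is a description of these letters and not a binding site.
Dct: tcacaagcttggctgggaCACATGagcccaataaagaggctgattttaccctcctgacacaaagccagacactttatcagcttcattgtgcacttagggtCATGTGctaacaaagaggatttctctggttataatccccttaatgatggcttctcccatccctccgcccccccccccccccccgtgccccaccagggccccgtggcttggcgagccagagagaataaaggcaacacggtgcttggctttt
Tyr: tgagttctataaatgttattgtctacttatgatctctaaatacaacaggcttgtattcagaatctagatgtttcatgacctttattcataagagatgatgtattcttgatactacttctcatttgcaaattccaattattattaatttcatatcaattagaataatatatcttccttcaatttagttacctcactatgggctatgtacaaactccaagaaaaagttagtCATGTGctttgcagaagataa

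Lens genes were listed as markers of another tissue of the eye, and their part in the results was not tested. Of 16 lens genes tested, 0 were higher and 1 lower in both strains (medians -0.43 and 0.87). Cryaa, alpha-A crystallin, had the highest CPM of the list, at 9.20, 1.99 and 8.93 CPM in CAST/EiJ, 26.7, 17.8 and 36.0 CPM in PWK/PhJ and 17.8, 4.23 and 4.08 CPM in WSB/EiJ. It was higher in PWK/PhJ (1.76 ± 0.48, q = 0.00259), a call lost without PWK/PhJ replicate 1 (1.73, q = 0.0103), PWK/PhJ replicate 3 (1.52, q = 0.0135), WSB/EiJ replicate 2 (1.46, q = 0.0108) or WSB/EiJ replicate 3 (1.44, q = 0.0141). The Cryaa call was lost as well with all 24 libraries in the fit (q = 0.109) and no limit on the mean (q = 0.0182). On the opposite strand 13.2% of the exon bases of Cryaa overlap another gene, so its level is uncertain. The list summed to 31.8, 11.7 and 33.4 CPM in CAST/EiJ, 108, 69.6 and 125 CPM in PWK/PhJ and 84.4, 21.5 and 21.8 CPM in WSB/EiJ. WSB/EiJ replicate 1 stood above the other 2 WSB/EiJ libraries in this sum as in that of the pigment epithelium. Bfsp2, a lens filament protein, was the lower gene, and its PWK/PhJ difference (-0.32 ± 0.11, q = 0.00991) did not pass in any fit that left out 1 library of PWK/PhJ, WSB/EiJ replicates 1 or 3, or any library of CAST/EiJ. With all 24 libraries in the fit Bfsp2 passed in neither strain (-0.74, q = 0.0574 in CAST/EiJ and q = 0.188 in PWK/PhJ). The PWK/PhJ call of Bfsp2 was also lost with a pseudocount of 0.1 (q = 0.0135), no limit on the mean (q = 0.0355), Benjamini-Hochberg adjustment (0.0321) and without the libraries with high Xist (q = 0.0587). The Bfsp2 difference nearest 0 among the fits without 1 library was -0.16, without WSB/EiJ replicate 1 (q = 0.0474).

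Among MHC class I and antigen processing genes, 1 of 14 was higher and 3 were lower (medians -0.04 and -0.06). H2-D1, a classical class I molecule, was at 1.31, 1.59 and 1.28 CPM in CAST/EiJ, 4.43, 4.45 and 4.68 CPM in PWK/PhJ and 11.2, 12.1 and 12.5 CPM in WSB/EiJ. The 3 strains did not overlap each other, in the order WSB/EiJ, PWK/PhJ and CAST/EiJ from high to low (-2.43 ± 0.08, q = 9.71e-13 and -1.23 ± 0.08, q = 2.4e-09). H2-K1 was at 1.20, 1.32 and 1.11 CPM in CAST/EiJ, 3.32, 3.41 and 3.02 CPM in PWK/PhJ and 6.23, 7.38 and 6.04 CPM in WSB/EiJ. H2-Q4 was at 0.409, 0.509 and 0.441 CPM in CAST/EiJ, 0.788, 0.815 and 0.614 CPM in PWK/PhJ and 1.63, 1.81 and 1.66 CPM in WSB/EiJ. Class I genes vary in sequence between strains and share words with many other genes (12.8% of H2-D1, 9.63% of H2-K1 and 36.4% of H2-Q4), so these levels are uncertain.

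Interferon-stimulated genes went both ways, with 5 of 19 higher and 3 lower (medians -0.04 and -0.03). Gbp7, a guanylate-binding protein, was at 0.479, 0.449 and 0.365 CPM in CAST/EiJ, 0.275, 0.555 and 0.369 CPM in PWK/PhJ and 1.76, 2.23 and 1.96 CPM in WSB/EiJ. It fell in both strains (-1.06 ± 0.09, q = 4.52e-08 and -1.09 ± 0.09, q = 3.23e-08), but 11.3% of its exon bases overlap Gm43802 on the same strand and its level is uncertain (summed with Gm43802, -1.04 and -1.09). Gm43802 had means of at most 0.0139 CPM, so that sum adds no support. Gbp7 was tested only through its WSB/EiJ values, and its place in the count is no support. Xaf1, a partner of XIAP, was at 1.14, 1.23 and 1.24 CPM in CAST/EiJ, 1.09, 1.26 and 1.33 CPM in PWK/PhJ and 0.515, 0.46 and 0.469 CPM in WSB/EiJ. All 6 values lay above the 3 of WSB/EiJ (0.57 ± 0.07, q = 2.74e-06 and 0.59 ± 0.07, q = 2.2e-06). With a WSB/EiJ mean under 0.5 CPM, Xaf1 was tested only through CAST/EiJ and PWK/PhJ, and its place in the count is no support. Ifit3 was at 0.858, 0.573 and 0.589 CPM in CAST/EiJ, 0.416, 0.446 and 0.399 CPM in PWK/PhJ and 2.57, 2.57 and 2.60 CPM in WSB/EiJ. It was lower in both, but 51.2% of its words are shared with Ifit3b and its level is uncertain (summed with Ifit3b, -1.21 in CAST/EiJ and -1.04 in PWK/PhJ).

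Of 23 circadian clock genes, 3 were higher and 1 lower (medians -0.01 and 0.10). Fbxl21, an F-box protein that binds cryptochromes, was at 1.95, 2.03 and 2.13 CPM in CAST/EiJ, 1.60, 1.76 and 1.89 CPM in PWK/PhJ and 0.894, 1.11 and 0.625 CPM in WSB/EiJ. Bhlhe41, a repressor of the clock (DEC2), was at 28.6, 27.0 and 27.1 CPM in CAST/EiJ, 30.9, 29.9 and 33.1 CPM in PWK/PhJ and 24.0, 19.6 and 23.7 CPM in WSB/EiJ. Of the 3 strains WSB/EiJ was the lowest for both, and as 19.0% of the exon bases of Bhlhe41 lie opposite Gm43909 its level is uncertain (summed with Gm43909, 0.29 and 0.47). Gm43909 had means of at most 0.23 CPM, so that sum adds no support. Per2 was at 5.59, 6.29 and 5.03 CPM in CAST/EiJ, 6.36, 4.503 and 5.86 CPM in PWK/PhJ and 7.002, 7.03 and 8.63 CPM in WSB/EiJ. The differences of Per2 were -0.36 ± 0.11 (q = 0.00443) in CAST/EiJ and -0.39 ± 0.11 (q = 0.00339) in PWK/PhJ. The calls were lost without WSB/EiJ replicate 3 (Per2 -0.28, q = 0.0275 in CAST/EiJ and -0.30, q = 0.0202 in PWK/PhJ). The CAST/EiJ call was also lost without CAST/EiJ replicate 1 (-0.36, q = 0.0142) or 3 (-0.30, q = 0.0263), and the PWK/PhJ call without PWK/PhJ replicate 2 (-0.26, q = 0.0258). Without each of these libraries the list had 0 genes lower. Both calls of Per2 were lost too with no limit on the mean (q = 0.0185 in CAST/EiJ and 0.0157 in PWK/PhJ), Benjamini-Hochberg adjustment (0.0147 and 0.011) and without the libraries with high Xist (q = 0.0147 and 0.0235). The time of day of collection is not given in the sources used here.

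Of 24 glutamate receptor genes, 2 were higher and 5 lower (medians -0.15 and -0.03), Grm6 among the lower. The lower count was 3 without PWK/PhJ replicate 1 or WSB/EiJ replicate 2, 2 without PWK/PhJ replicate 2 and 1 without WSB/EiJ replicate 3. Grid1, a delta glutamate receptor, was at 8.59, 8.23 and 7.22 CPM in CAST/EiJ, 8.10, 8.99 and 8.93 CPM in PWK/PhJ and 11.9, 9.64 and 11.5 CPM in WSB/EiJ. It fell in CAST/EiJ (-0.41 ± 0.09, q = 0.000339) and PWK/PhJ (-0.31 ± 0.09, q = 0.00251), but its PWK/PhJ call was lost without PWK/PhJ replicate 1 (q = 0.0141), WSB/EiJ replicate 1 (q = 0.0117) or WSB/EiJ replicate 3 (Grid1 q = 0.0123). GABA and glycine receptors had 1 higher and 2 lower of 18, Gabrr1 among the lower (medians -0.04 and -0.01). The lower count was 1 without PWK/PhJ replicate 1, WSB/EiJ replicate 1 or WSB/EiJ replicate 2, and 0 without PWK/PhJ replicate 3 or WSB/EiJ replicate 3. Gabra4, a subunit of GABA-A receptors, was at 6.39, 6.97 and 6.59 CPM in CAST/EiJ, 9.08, 8.22 and 7.76 CPM in PWK/PhJ and 3.68, 3.89 and 3.40 CPM in WSB/EiJ. PWK/PhJ was the highest and WSB/EiJ the lowest of the 3 (0.72 ± 0.07, q = 7.26e-07 and 1.00 ± 0.07, q = 1.98e-08).

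In the glutathione and xenobiotic enzyme list, 2 of 26 were higher and 4 lower (medians -0.02 and 0.12). Gstz1, which breaks down a product of tyrosine, was at 13.0, 13.3 and 13.7 CPM in CAST/EiJ, 14.0, 14.5 and 14.6 CPM in PWK/PhJ and 8.29, 6.73 and 7.29 CPM in WSB/EiJ. Both strains were above WSB/EiJ (0.76 ± 0.07, q = 1.84e-07 and 0.87 ± 0.07, q = 4.7e-08), but 12.2% of the Gstz1 exon bases lie opposite other genes, mainly Pomt2, and summed with Pomt2 the differences were 0.05 and 0.44, so the level is uncertain. Txnrd1, thioredoxin reductase, was at 6.21, 6.55 and 5.31 CPM in CAST/EiJ, 5.46, 5.19 and 6.26 CPM in PWK/PhJ and 10.1, 9.50 and 9.63 CPM in WSB/EiJ. It fell in both (-0.61 ± 0.08, q = 8.51e-06 and -0.70 ± 0.08, q = 2.58e-06). Gstm5 was at 5.48, 5.05 and 5.89 CPM in CAST/EiJ, 4.46, 5.00 and 3.96 CPM in PWK/PhJ and 7.61, 8.41 and 7.395 CPM in WSB/EiJ. Of the 3 strains WSB/EiJ was the highest without overlap, and 13.9% of the Gstm5 exon bases lie opposite 4933431E20Rik, so its level is uncertain (summed over both genes, -1.40 and -1.45).

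Cholesterol synthesis genes had 2 higher and 2 lower of 22 (medians -0.01 and 0.10), among the lower Idi1, whose level is uncertain as 25.3% of its words are shared. The lower count was 0 without PWK/PhJ replicate 3 and 1 without any other library except PWK/PhJ replicate 1 and WSB/EiJ replicate 2. Hmgcs1, the cytosolic synthase of the mevalonate pathway, was at 57.3, 52.7 and 59.5 CPM in CAST/EiJ, 64.6, 71.0 and 59.4 CPM in PWK/PhJ and 45.8, 46.9 and 38.7 CPM in WSB/EiJ. Stard4, a sterol carrier, was at 8.06, 7.23 and 9.28 CPM in CAST/EiJ, 8.41, 9.65 and 8.05 CPM in PWK/PhJ and 5.05, 5.24 and 4.51 CPM in WSB/EiJ. Both were lowest in WSB/EiJ of the 3 strains without overlap (Stard4 0.63 ± 0.09, q = 1.79e-05 and 0.71 ± 0.09, q = 5.79e-06), and as 12.1% of the Hmgcs1 exon bases lie opposite Gm48342 the level of Hmgcs1 is uncertain (summed with Gm48342, 0.36 and 0.56). Gm48342 had means of at most 0.062 CPM, so that sum adds no support. Immediate early genes had 0 higher and 0 lower of 16 (medians -0.12 and 0.16). Heat shock and cold shock genes had 1 higher and 2 lower of 11 (medians -0.34 and -0.03). Cirbp, a cold-inducible RNA-binding protein, was at 52.6, 51.0 and 52.2 CPM in CAST/EiJ, 52.1, 52.8 and 52.2 CPM in PWK/PhJ and 46.3, 31.1 and 33.6 CPM in WSB/EiJ. It rose in both strains (0.50 ± 0.10, q = 0.000353 and 0.51 ± 0.10, q = 0.000303). Hspa5 was at 62.0, 63.1 and 63.3 CPM in CAST/EiJ, 83.1, 68.6 and 73.9 CPM in PWK/PhJ and 77.8, 96.9 and 138 CPM in WSB/EiJ. Hspa1b was at 9.87, 12.8 and 8.18 CPM in CAST/EiJ, 16.7, 16.3 and 18.7 CPM in PWK/PhJ and 20.1, 20.6 and 30.7 CPM in WSB/EiJ. WSB/EiJ replicate 3 was the highest of the 9 libraries for both, and the PWK/PhJ calls were lost without it (Hspa5 q = 0.0301, Hspa1b q = 0.0576). The Hspa5 call was also lost without PWK/PhJ replicate 2 (q = 0.0364), PWK/PhJ replicate 3 (q = 0.0195) or CAST/EiJ replicate 1 (q = 0.0101), and that of Hspa1b without PWK/PhJ replicate 1 (q = 0.0309), 2 (q = 0.039) or 3 (q = 0.0131) or CAST/EiJ replicate 1 (q = 0.0137). Without WSB/EiJ replicate 1 there were 4 lower genes in this list, and without WSB/EiJ replicate 3 there were 2 higher. Hspa1b shares 62.3% of its words with other genes, mainly Hspa1a, and summed over both genes it differed by -0.49 in CAST/EiJ and by 0.14 in PWK/PhJ, so its difference is uncertain. Among alternatives that kept all libraries, the PWK/PhJ calls were lost with no limit on the mean (Hspa5 q = 0.0347, Hspa1b q = 0.0433) and with Benjamini-Hochberg adjustment (0.0228 and 0.032), and that of Hspa1b also with a pseudocount of 0.1 (q = 0.011) or a limit of 5 CPM (q = 0.0133). Without the libraries with high Xist neither call passed (Hspa5 q = 0.0456, Hspa1b q = 0.0311).

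Clustered protocadherins, which give neurons a surface identity, had 0 higher and 13 lower of 55 (medians -0.17 in CAST/EiJ and -0.13 in PWK/PhJ), 14 lower under either other scaling and 9 without the libraries with high Xist. Pcdhb2 was at 1.55, 1.16 and 1.39 CPM in CAST/EiJ, 1.04, 1.23 and 1.25 CPM in PWK/PhJ and 2.76, 2.58 and 2.48 CPM in WSB/EiJ. Pcdhb3 was at 2.996, 2.54 and 3.11 CPM in CAST/EiJ, 2.72, 2.36 and 2.44 CPM in PWK/PhJ and 4.79, 4.16 and 4.38 CPM in WSB/EiJ. Pcdhb15 was at 2.56, 2.72 and 2.78 CPM in CAST/EiJ, 2.63, 2.51 and 3.02 CPM in PWK/PhJ and 4.23, 4.33 and 4.58 CPM in WSB/EiJ. For these 3 genes every WSB/EiJ library was above the 6 of CAST/EiJ and PWK/PhJ (Pcdhb2 -0.61 ± 0.08, q = 7.09e-06 and -0.73 ± 0.08, q = 1.19e-06). Zfp genes of the zinc finger families went both ways, with 31 of 348 higher and 30 lower (medians 0.04 and 0.03), and 17 higher without the libraries with high Xist.

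Of 69 cytosolic ribosomal protein genes, 4 were higher and 13 lower (medians 0.04 and -0.03). Rpl21 was at 4.08, 3.84 and 4.07 CPM in CAST/EiJ, 3.42, 2.81 and 3.39 CPM in PWK/PhJ and 11.4, 11.5 and 11.4 CPM in WSB/EiJ. WSB/EiJ was the highest of the 3 strains (-1.32 ± 0.07, q = 7.76e-10 and -1.57 ± 0.07, q = 1.08e-10). Rpl29 was at 3.33, 3.05 and 3.17 CPM in CAST/EiJ, 15.3, 13.2 and 13.0 CPM in PWK/PhJ and 0.668, 0.26 and 0.551 CPM in WSB/EiJ, and Rpl7a was lower in both strains. Processed copies of these genes are frequent, with 14.9% of the words of Rpl21 shared, 35.5% of Rpl29 and 37.9% of Rpl7a, so their levels are uncertain. Summed with the main partner, Rpl21 (with Gm10240) differed by 0.04 in CAST/EiJ and by -2.07 in PWK/PhJ, Rpl29 (with Uimc1) by 0.21 and 0.87, and Rpl7a (with Rpl7a-ps11) by -1.50 and -0.55.

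Nuclear genes of oxidative phosphorylation had 7 higher and 2 lower of 74 (medians 0.06 and 0.09), 6 and 5 under either other scaling. Without WSB/EiJ replicate 1 there were 15 higher and 1 lower, without WSB/EiJ replicate 2 there were 4 lower, and without WSB/EiJ replicate 3 or any library of CAST/EiJ there was 1 lower. Ndufv3, a subunit of complex I, was at 29.5, 26.3 and 30.9 CPM in CAST/EiJ, 29.5, 27.8 and 26.2 CPM in PWK/PhJ and 21.7, 18.1 and 18.1 CPM in WSB/EiJ. Sdha, the flavoprotein of complex II, was at 85.0, 77.6 and 83.0 CPM in CAST/EiJ, 83.0, 75.5 and 69.7 CPM in PWK/PhJ and 63.0, 49.4 and 57.4 CPM in WSB/EiJ. Cox7a2, a subunit of cytochrome c oxidase, was at 16.2, 15.7 and 16.7 CPM in CAST/EiJ, 17.1, 15.1 and 15.3 CPM in PWK/PhJ and 12.9, 10.7 and 11.9 CPM in WSB/EiJ. WSB/EiJ was the lowest of the 3 strains for these genes (Sdha 0.53 ± 0.08, q = 3.29e-05 and 0.42 ± 0.08, q = 0.000227).

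Of 15 mitochondrially encoded genes, 6 were higher and 1 lower, with medians of 0.34 in CAST/EiJ and -0.15 in PWK/PhJ. Under either other scaling the counts were 5 and 1, and 2 genes were lower without PWK/PhJ replicate 1. The gene mt-Rnr2, the large ribosomal RNA, was at 29.9, 24.9 and 28.9 CPM in CAST/EiJ, 8.47, 6.00 and 7.44 CPM in PWK/PhJ and 5.41, 3.38 and 4.04 CPM in WSB/EiJ. Of the 3 strains it was highest in CAST/EiJ (2.47 ± 0.13, q = 3.63e-10 and 0.66 ± 0.13, q = 0.000242), in libraries that had been depleted of ribosomal RNA. The gene mt-Nd4l was at 10.6, 9.96 and 10.7 CPM in CAST/EiJ, 11.8, 8.53 and 7.27 CPM in PWK/PhJ and 5.16, 5.43 and 5.14 CPM in WSB/EiJ. The lower gene mt-Co1 was at 1873, 1847 and 2092 CPM in CAST/EiJ, 1172, 1182 and 1070 CPM in PWK/PhJ and 2646, 2865 and 2479 CPM in WSB/EiJ. Shared words came to 98.8% of mt-Nd4l and 51.1% of mt-Co1, which has copies in the nuclear genome, and as Gm13340 holds such a copy the split between them is uncertain.

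In 500 genes (3.18%) the strains differed from WSB/EiJ in opposite directions, 265 without the libraries with high Xist and 318 without WSB/EiJ replicate 3. Gulo, which makes vitamin C in mice, was at 16.9, 15.9 and 15.7 CPM in CAST/EiJ, 0.734, 0.427 and 0.554 CPM in PWK/PhJ and 6.73, 6.50 and 6.25 CPM in WSB/EiJ. Of the 3 strains CAST/EiJ was highest and PWK/PhJ lowest, and none of the 3 strains overlapped. Rtkn2, an effector of small GTPases, was at 30.5, 27.9 and 31.3 CPM in CAST/EiJ, 0.978, 0.921 and 0.923 CPM in PWK/PhJ and 14.0, 13.3 and 11.9 CPM in WSB/EiJ. It had the same order of strains (1.14 ± 0.07, q = 3.48e-09 in CAST/EiJ and -2.86 ± 0.07, q = 9.65e-14 in PWK/PhJ). Syne3, which links the nuclear envelope to intermediate filaments, was at 10.1, 9.49 and 8.45 CPM in CAST/EiJ, 53.5, 51.9 and 53.0 CPM in PWK/PhJ and 25.0, 17.7 and 25.5 CPM in WSB/EiJ. Catspere2 was at 2.83, 2.73 and 2.58 CPM in CAST/EiJ, 37.2, 40.5 and 37.6 CPM in PWK/PhJ and 16.5, 16.5 and 16.8 CPM in WSB/EiJ. For these 2 genes PWK/PhJ was the highest and CAST/EiJ the lowest of the 3 strains (Syne3 -1.18 ± 0.11, q = 1.57e-07 and 1.20 ± 0.11, q = 1.35e-07). Catspere2 shares 15.5% of its words with other genes, mainly Catspere1, and its level is uncertain (summed with Catspere1, -1.93 in CAST/EiJ and 1.70 in PWK/PhJ).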

How the data were processed

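RNA was measured in retinae at postnatal day 28 from 8 inbred strains with 3 libraries each, grouped by the strain in the sample labels and numbered as replicates 1 to 3 in label order. The deposited values are CPM made by the authors from reads aligned to GRCm38/mm10 with STAR and counted with the E/M quantification of Partek, as the submitters' notes state without versions. Over the genes listed these values sum to 332469 to 365058 CPM in the 9 libraries of CAST/EiJ, PWK/PhJ and WSB/EiJ, so the scaling total holds more than these genes. A small offset lists genes without reads at 0.0001. The labels name a stranded kit, and whether counting used the strand is not stated.

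The 9 libraries of CAST/EiJ, PWK/PhJ and WSB/EiJ were fitted with limma 3.58.1 in R 4.3.3 (a mean per strain, eBayes with a trend) on log2(CPM + 1). A gene was tested if its mean over these libraries reached 0.5 CPM and it was not on X or Y, and the differences CAST/EiJ minus WSB/EiJ, PWK/PhJ minus WSB/EiJ and CAST/EiJ minus PWK/PhJ were called at a two-sided Storey q under 0.01. A gene counts as same-direction when it passes in both strains with the same sign, and as 2-fold when both log2 differences are at least 1 in size. The fit was tested on simulated data. Depth was 57607000 to 77886000 reads per library, and 3 reads correspond to 0.0385 to 0.0521 CPM.

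Gene classes and positions are those deposited with the values. Words of 50 bases shared between transcripts of different genes, and exon overlaps, were counted from GENCODE M21. Promoters are the 250 bases before RefSeq starts on GRCm38.p6. Other scripts used Python 3.11.15 and matplotlib 3.10.9. The genes named are, by fixed rules, the 12 protein-coding genes with the largest smaller difference in each direction, up to 3 per list, per class outside protein coding and 6 per side without reads, and 4 with opposite directions. Symbols of Gm and a number, or ending in Rik, were set with the other classes even where protein coding. Any further gene was picked with its values in view. The comparison and the lists were chosen with earlier results of these data known. Alternatives were a pseudocount of 0.1, no limit on the mean or a limit of 5 CPM, median-ratio scaling, quantile normalization, Benjamini-Hochberg adjustment, q under 0.05, a fit of all 24 libraries, each library left out in turn and, added after seeing the data, both libraries with high Xist left out.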

Additional observations from a re-analysis of the deposited data

Results flagged for a closer look

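The strains CAST/EiJ and PWK/PhJ moved in opposite directions from WSB/EiJ in 4 genes picked out here for that pattern. The difference between these strains, fitted with limma, follows from the choice and adds no support. CAST/EiJ minus PWK/PhJ on the log2 scale was 3.452 for Gulo, -2.381 for Syne3, -3.408 for Catspere2 and 3.992 for Rtkn2. Catspere2 shares words with Catspere1, so its level is uncertain. The report gives the values in each library.

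Genes of the X and Y chromosomes were outside the comparisons, and Xist gave a signal there above its level in the other libraries. It was at 1081 CPM in PWK/PhJ replicate 2, 1046 CPM in CAST/EiJ replicate 3 and 9.707 CPM in CAST/EiJ replicate 2, and at most 0.341 CPM in the other 6 libraries. The labels do not give sex.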

How the results depend on the processing

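Over 226 comparisons of named genes and 18 alternatives, where the gene was tested, 3884 results kept their direction and side of the threshold, 103 no longer passed, 3 passed newly and 0 reversed. Sag in CAST/EiJ (0.00) and Grk1 in both strains (0.00 in PWK/PhJ) no longer passed under quantile normalization, and the cause was not tested.

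With a pseudocount of 0.1, 279 genes were at least 2-fold higher and 238 lower in both strains, since a smaller pseudocount enlarges differences of low genes. With the limit on the mean at 5 CPM, where fewer genes are tested, 3858 genes differed between CAST/EiJ and WSB/EiJ, 3647 between PWK/PhJ and WSB/EiJ and 3634 between CAST/EiJ and PWK/PhJ. In that test 1104 genes were higher in both, 710 lower in both, 60 at least 2-fold higher, 40 at least 2-fold lower and 300 opposite, and for 530 all classical strains lay on the WSB/EiJ side. With Benjamini-Hochberg adjustment 304 genes were opposite. With q under 0.05 there were 1145 opposite and 2960 higher in both. Without both libraries with high Xist (7 libraries, chosen after seeing the data) 4007 genes differed between CAST/EiJ and PWK/PhJ, 265 were opposite and 276 without reads on either side. Other alternatives with all libraries kept these counts within 1.5 times.

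Leaving out 1 library at a time gave 5287 to 6648 genes for CAST/EiJ, 5016 to 6502 for PWK/PhJ, 1382 to 1845 higher in both, 1116 to 1491 lower in both, 108 to 114 at least 2-fold higher, 115 to 137 at least 2-fold lower, 4995 to 7098 between CAST/EiJ and PWK/PhJ, 318 to 453 opposite (318 without WSB/EiJ replicate 3), 821 to 953 with all classical strains on the WSB/EiJ side and 217 to 314 without reads on either side (274 without WSB/EiJ replicate 1, 314 without replicate 2 and 280 without replicate 3). Among named genes, the PWK/PhJ call of Gabrr1 was lost without PWK/PhJ replicate 3 (q = 0.0237), WSB/EiJ replicate 2 (q = 0.0137) or WSB/EiJ replicate 3 (q = 0.0146), with no limit on the mean (q = 0.0148) and with Benjamini-Hochberg adjustment (0.0144), and that of Idi1 without PWK/PhJ replicate 3 (q = 0.0121).

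With 3 libraries per strain small differences are missed, and depth leaves genes under 3 reads without a usable fold. Sex, batch and time of collection are not in the labels, and alignment to the C57BL/6J genome was not separated from transcript level.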
